A study of Mus musculus with 9 samples.

Results

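The genes described here encode the proteins that dock and fuse synaptic vesicles, together with their closest relatives. Members were all genes whose annotated symbol begins with Syt, Vamp, Stx, Sv2, Cplx, Syngr or Rab3 followed by a further letter or digit, plus Syn1, Syn2, Syn3, Snap25, Snap29, Snap91 and Syp. This gave 71 genes of the 12393 that the array names, and 130 probe sets, since 34 of the genes have more than 1. Each gene was read at its brightest probe set that names it alone. The rule works by letters, so it also takes relatives with other duties: syntaxins of the Golgi and endosome, and 8 small GTPases from Rab30 to Rab38 that are not Rab3 proteins. These are described apart. Sv2b and Sv2c are left out, since the annotation used pairs neither with a probe set of its own.

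A nerve terminal releases transmitter when a vesicle SNARE protein, synaptobrevin (the Vamp genes), zips together with syntaxin and Snap25 on the plasma membrane. Synaptotagmins sense the calcium that enters with each impulse, complexins hold the partly zipped complex ready, and Rab3 and the synapsins govern how vesicles reach the release site. Loss of the neuromuscular synapse is an early feature of spinal muscular atrophy (SMA), a motor neuron disease caused by too little SMN protein, and motor terminals rely mainly on Syt2 and Vamp1 in place of the forebrain forms.

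Motor neurons were cut by laser from frozen sections (16 µm) of the lumbar cord, about 100 cells per cap, and each array held the cells of 1 mouse. Of the 9 mice, 3 were wild type and received vehicle, 3 were transgenic SMA mice and received vehicle, and 3 were SMA mice that received NSC (neural stem cells, as known from the study). Surgery took place at postnatal day 1 in every group, and tissue was taken at 13 days after perfusion with paraformaldehyde. The SMA alleles, strain, sex and source of the grafted cells are not named in the labels. Values are MAS5 signals, a linear brightness in arbitrary units that can be compared between arrays for one probe set but not between probe sets.

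Some facts of the arrays bear on every result. Markers that set motor neurons apart were dim: of 8 with a probe set, 1 (Isl2) was bright enough to test, and none was at 0. The acetylcholine transporter Slc18a3 read 2.1 to 41.7 over the arrays and the transcription factor Isl1 3.8 to 16.7. The summed signal of these 8 was 101 to 174 in wild type, 99.2 to 194 in SMA and 139 to 289 after transplantation. General neuronal markers, 15 genes of which 14 were tested, summed to 3710 to 4880, 2900 to 5770 and 3130 to 7170. Skeletal muscle transcripts (11 genes, 5 tested) summed to 115 to 316, 149 to 3050 and 142 to 210, with the muscle actin gene Acta1 at 1288.7 on SMA 1 and 1413.7 on SMA 2. The female transcript Xist was at most 47.6 on all wild-type arrays and SMA 3, and at least 366.1 on the remaining arrays, so the sexes were unevenly spread over the groups. Transplanted SMA 3 carried both Xist (366.1) and the Y-linked Eif2s3y (84.8). The labels give 1 mouse per array, which both signals together put in doubt for transplanted SMA 3. The source of the mixed signal was not tested. No member passed the test in any comparison when Xist or the muscle transcripts were added as a covariate, or when SMA 1 and SMA 2 or the arrays numbered 3 were left out. Single differences did move: for SMA minus wild type, 7 of the 31 tested genes followed through the alternatives took the opposite sign with muscle transcripts as a covariate, 10 with Xist and 8 without SMA 1 and SMA 2. For transplanted SMA minus SMA these counts were 12, 3 and 12, and for transplanted SMA minus wild type 0, 9 and 0. These alternatives are not separate checks of SMA minus wild type. Among the SMA arrays, SMA 3 alone was low in both muscle transcripts and Xist. Without SMA 1 and SMA 2 it is the only SMA array left, and with either covariate the value leans largely on it. For transplanted SMA minus SMA the same holds for the muscle covariate and for leaving out SMA 1 and SMA 2. In such captures, fewer neurons and less RNA per neuron cannot be told apart.

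Of the 71 genes, 45 were bright enough to test, meaning that their probe set was in the brighter 50% of the array. All 7 Vamp genes and all 7 syntaxins of internal membranes were tested, but only 5 of 14 synaptotagmins, 2 of 4 complexins and 1 of 4 Rab3 genes (Rab3a). The other 26 had mean signals of 1.8 to 33.9. Syt1, the main calcium sensor of forebrain synapses, was among these with 13.2 to 28.4 over the arrays, and Syn3 read 4.8 to 9.1. The synaptotagmins too dim to test were Syt1, Syt3, Syt5, Syt6, Syt7, Syt8, Syt10, Syt12 and Syt13.

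**Figure D1:**
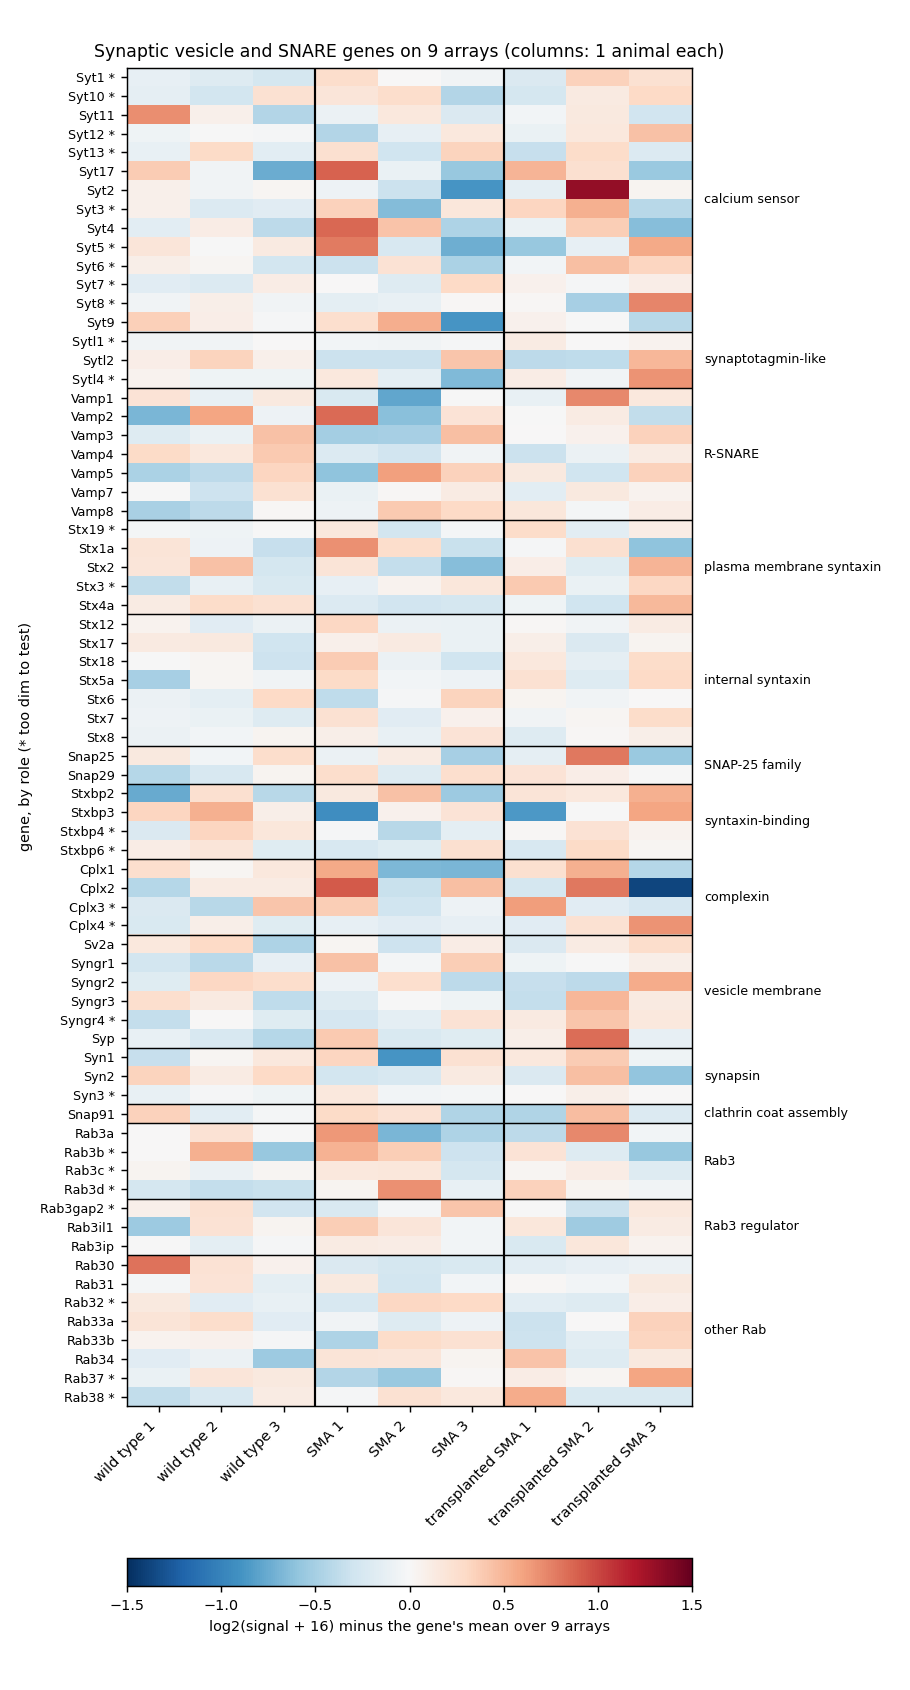
Colour gives each gene's log2(signal + 16) on an array minus that gene's mean over all 9 arrays (red higher, blue lower), for the 71 genes ordered by role and the 9 arrays ordered by group; an asterisk marks the 26 genes too dim to test. The deepest red is Syt2 on transplanted SMA 2 (125.2 against 14.8 to 43.7 elsewhere) and the deepest blue Cplx2 on transplanted SMA 3 (29.7).

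The comparison of SMA with wild type asks how the SMA genotype differs from the healthy one. On SMA 1 and SMA 2 the genotype cannot be told apart from sex and muscle content. No member passed: 0 of 45 tested members had an adjusted p under 0.05 (limma with Benjamini-Hochberg adjustment over all 11313 tested probe sets, of which 0.0442% passed), and the smallest adjusted p among members was 0.674. At an unadjusted p under 0.05 there were 5 members, or 11.1% of those tested against 6.04% of all tested probe sets. Without wild type 1 that count was 1, without wild type 2, wild type 3 or SMA 2 it was 3, with a gene's probe sets averaged it was 2, and with Xist or the muscle transcripts as a covariate it was 2. Without SMA 1 it was 7, without the arrays numbered 3 it was 8, and without the probe sets that by their name type (_x_at, _s_at or _a_at) can match several transcripts it was 3. Syngr1 and Vamp8 were the 2 on the higher side (2.71% of all tested probe sets), and Rab30, Vamp4 and Stx4a the 3 on the lower (3.32%). Rab30 was bright enough to test only through its wild-type arrays. Over all 71 genes 36 differences were positive and 35 negative, with a median of 0.03 on the log2 scale, the same as the median of all probe sets (0.03). Groups did not overlap for 6 of the 45 (13.3%, against 11.4% of all tested probe sets): the SMA arrays all lay above wild type for Syngr1 and Rab34 (5.31% of all tested probe sets did so), and all below for Syt2, Vamp4, Stx4a and Rab30 (6.06%).

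The comparison of transplanted SMA with SMA asks what the graft changed in the SMA animals. On SMA 1 and SMA 2 the lack of a graft cannot be told apart from muscle content. Again 0 of 45 members passed, as did 0% of all tested probe sets, and the smallest adjusted p was 0.933 with limma. Syt2 and Vamp1, the sensor and the synaptobrevin of motor terminals, were the 2 members with an unadjusted p under 0.05, both higher after transplantation, which is 4.44% of members against 4.77% of all tested probe sets (2.32% higher and 2.46% lower). Differences were positive in 43 of 71 genes (60.6%, against 52.2% of all probe sets), with a median of 0.05 against 0.01. That median was 0.12 without SMA 1, 0.01 without SMA 2 or without transplanted SMA 3, and 0 without the arrays numbered 3. Groups did not overlap for 1 tested member, Rab30, which was higher (2.22% of members, against 9.11% of all tested probe sets, 4.43% higher and 4.68% lower). The Rab30 means of both groups (26.3 in SMA, 29.7 in transplanted SMA) lay below the limit for testing, near 33.5.

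The comparison of transplanted SMA with wild type asks how far the treated animals stood from healthy ones. It shares its arrays with the comparisons above, so its values are set beside theirs and not counted as separate evidence. Xist was high on all transplanted arrays and low on all wild-type arrays, so group and Xist level cannot be told apart here. No member passed with limma (0 of 45, against 0% of all tested probe sets; smallest adjusted p 0.735), and 1 member, Rab30, had an unadjusted p under 0.05 and was lower (2.22% of members, against 6.55% of all tested probe sets, 3.27% higher and 3.28% lower). As above, Rab30 was bright enough to test only through the wild-type group. Of 71 differences 44 were positive, with a median of 0.06 against 0.03 for all probe sets. With every array centred on its median, that count was 35 of 71 and the median -0.02, so no direction of the whole set is read from it. Groups did not overlap for 4 tested members (8.89%, against 14.1% of all tested probe sets): Stx7 and Syngr1 were higher (7.11% of all), Vamp4 and Rab30 lower (7.04%).

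The intervals show what these arrays could miss. The 95% interval of a tested member's difference had a median width of 0.56 to each side on the log2 scale (0.36 to 1.05). For SMA minus wild type, 35 of the 45 intervals lay wholly between -1 and 1, and for the comparisons of the transplanted arrays 37 (with SMA) and 39 (with wild type). A change of 1 unit or more in log2(signal + 16) lay outside the interval for those members. The added 16 makes folds of dim genes too small, so for dim tested members larger folds of the signal itself are not excluded. Smaller changes were mostly not resolved. Among replicates the tested members spread more than the array at large, with a median SD within groups of 0.34 against 0.26 on the log2 scale.

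**Figure D2:**
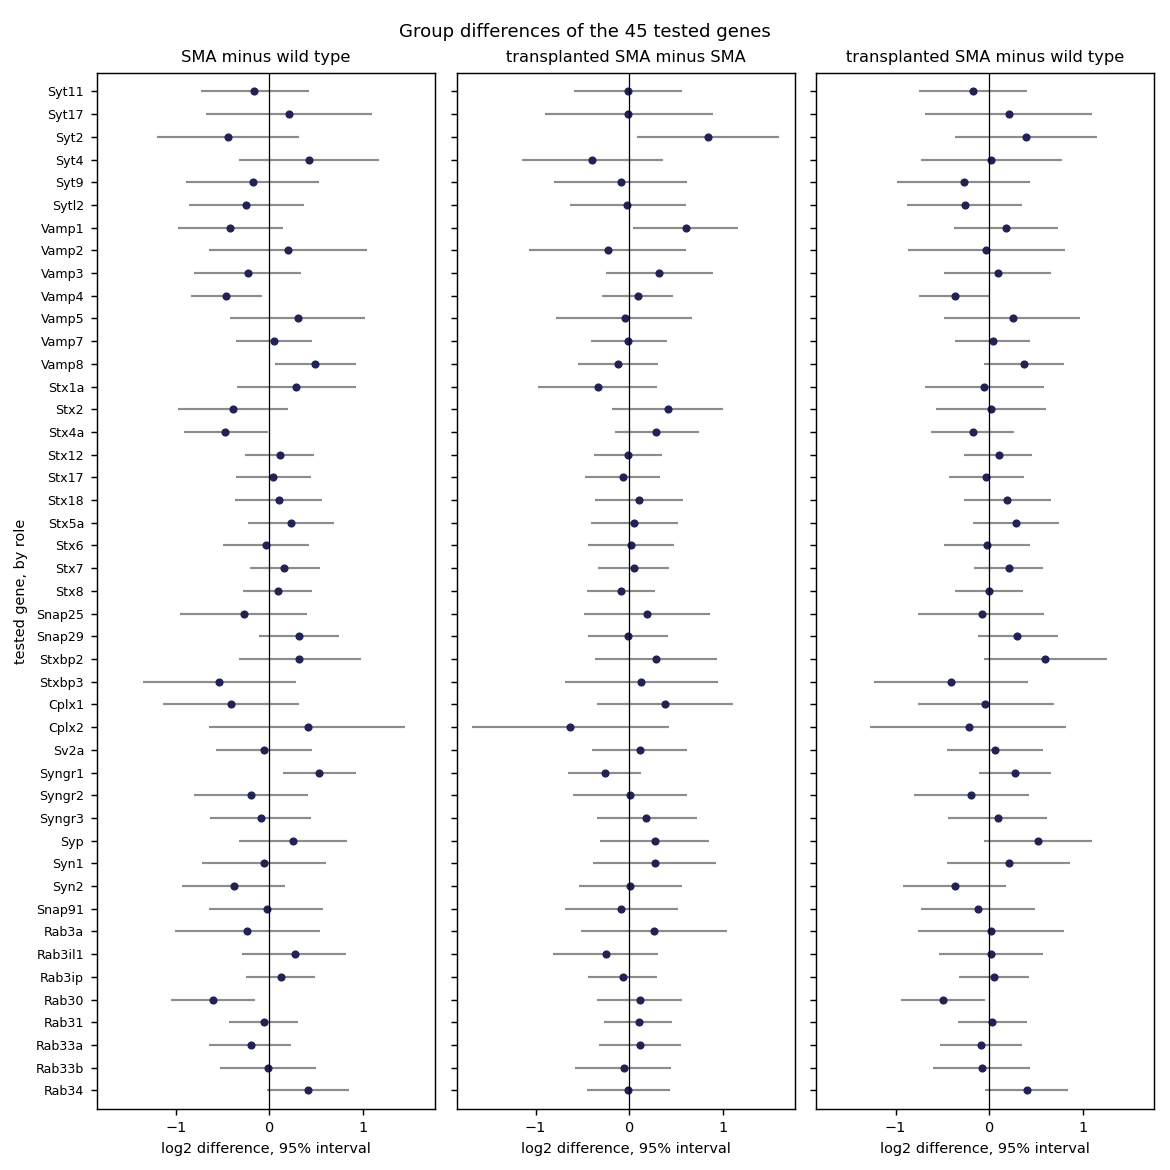
Points are log2 differences of the 45 tested genes and lines their 95% intervals from limma, with 1 panel per comparison and 3 arrays per group; the vertical line marks no difference. Most lines cross 0: in the middle panel only those of Syt2 (0.08 to 1.60) and Vamp1 (0.04 to 1.16) do not, and neither gene passed after adjustment.

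Synaptotagmins carry a pair of calcium-binding domains. Of the 14, 7 were higher and 7 lower in SMA than in wild type (median -0.01, log2). Syt2, which times fast release at motor terminals, read 43.7, 38.8 and 41.6 in the wild-type animals, 37.7, 29.3 and 14.8 in the SMA animals, and 35.6, 125.2 and 42.4 in the transplanted animals. The SMA arrays all lay below the wild-type arrays. Transplanted SMA 2 stood far above every other array, and the remaining transplanted arrays lay near wild type. The SMA mean (27.3) lay below the limit for testing, near 33.5, and the wild-type and transplanted means (41.4 and 67.7) above it. The log2 difference was -0.44 (SE 0.34; 95% interval -1.20 to 0.32; limma adjusted p = 0.963) for SMA minus wild type and 0.84 (SE 0.34; 0.08 to 1.60; adjusted p = 0.933) for transplanted SMA minus SMA. Without transplanted SMA 2 the second value was 0.38. The 2 dimmer Syt2 probe sets, at signals of 1.5 to 25.5, differed the other way in both comparisons (0.38 and 0.39, then -0.31 and -0.16), so the probe sets of this gene disagree. For SMA minus wild type the brightest probe set gave -0.88 with muscle transcripts and -1.04 with Xist as a covariate, and -0.90 without SMA 1 and SMA 2.

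Vamp1, the synaptobrevin of motor and other spinal terminals, read 357.9, 285.8 and 344.4 in the wild-type animals, 261.8, 173.9 and 307.1 in the SMA animals, and 286.3, 521.2 and 348.2 in the transplanted animals. Its pattern resembled that of Syt2 in that SMA 2 was low and transplanted SMA 2 was the highest array, but the SMA range overlapped both other groups. The difference was -0.42 (SE 0.25; 95% interval -0.98 to 0.14; limma adjusted p = 0.908) for SMA minus wild type and 0.60 (SE 0.25; 0.04 to 1.16; adjusted p = 0.933) for transplanted SMA minus SMA. Without SMA 2 or without transplanted SMA 2 the latter was 0.38 and 0.37. With Xist as a covariate the difference between SMA and wild type was -0.06, and without SMA 1 and SMA 2 it was -0.09.

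The 250 bases before the annotated starts of Syt2 and Vamp1 are shown, from RefSeq (GRCm38.p6). They were chosen for the smallest limma p among members in transplanted SMA minus SMA, where neither passed. At an unadjusted p under 0.05 the share of members (4.44%) was near that of all tested probe sets (4.77%). Both were highest on transplanted SMA 2, as were 10 of the 45 tested members in all. No joint response is read from the pair. The stretches before the 2 annotated starts of Syt2 are chr1:134646362-134646611 and chr1:134709050-134709299, and that of Vamp1 is chr6:125215331-125215580; all are on the + strand and read 5′ to 3′. Capitals mark the GC box GGGCGG, a binding site of Sp1, and the CCAAT box, on either strand (CCGCCC and ATTGG on the other).
Syt2 first start: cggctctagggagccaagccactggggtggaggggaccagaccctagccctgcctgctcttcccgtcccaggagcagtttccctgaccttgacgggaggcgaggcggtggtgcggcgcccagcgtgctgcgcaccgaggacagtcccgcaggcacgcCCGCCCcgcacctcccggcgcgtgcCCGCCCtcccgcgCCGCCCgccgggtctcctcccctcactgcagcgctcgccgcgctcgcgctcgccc
Syt2 second start: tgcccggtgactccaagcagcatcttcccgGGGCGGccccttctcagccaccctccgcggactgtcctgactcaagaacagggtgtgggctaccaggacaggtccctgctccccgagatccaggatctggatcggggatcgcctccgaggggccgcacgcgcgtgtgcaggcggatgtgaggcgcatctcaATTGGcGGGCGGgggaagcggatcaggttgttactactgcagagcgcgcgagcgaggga
Vamp1: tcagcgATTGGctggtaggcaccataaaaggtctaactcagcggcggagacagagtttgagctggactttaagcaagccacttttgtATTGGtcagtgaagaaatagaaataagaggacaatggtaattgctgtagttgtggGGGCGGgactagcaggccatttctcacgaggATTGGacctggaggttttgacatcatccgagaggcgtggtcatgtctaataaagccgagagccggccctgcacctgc

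The first Syt2 window holds 3 GC boxes and 0 CCAAT boxes, the second 2 and 1, and the Vamp1 window 1 and 3. Such motifs are common. Of the 71 genes, 53 had an entry in the RefSeq promoter table (windows from 250 bases before to 50 after a start); GGGCGG occurred in 38 of these (71.7%) and in 61% of all 9888 array genes with an entry, and CCAAT in 17 (32.1%) and 42.3%. The TATA letters TATAAA occurred in 3 (Rab3b, Stx2 and Stx3) and in 11.9% of array genes. The cAMP response element TGACGTCA occurred in 2 (Stxbp3 and Syn1) and in 2.99%. The letters TTCAGCACC, the left part of the RE1 site bound by the neuronal gene repressor REST, occurred in Syn1 alone and in 0.485% of array genes. Both strands were searched for each motif, and no GC box overlaps a CCAAT box in the windows shown. A match describes the letters and not a bound site.

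Syt11, which like Syt4 lacks normal calcium binding in its first domain, read 1145.3, 737.2 and 509.3 in the wild-type animals, 656.4, 782.2 and 601 in the SMA animals, and 681, 773.5 and 568.3 in the transplanted animals. The wild-type arrays alone spanned more than both other groups. Syt4, an activity-regulated vesicle protein, read 28.9, 37.9 and 21.9, then 74.4, 51 and 20.2, then 30.6, 48.6 and 16, so that SMA 1 and SMA 2 were high and SMA 3 lay below all wild-type arrays (difference 0.42, SE 0.34). Its dimmer probe set gave 0.52 for the same comparison. Syt4 was bright enough to test only through its SMA arrays. The SMA mean (48.5) lay above the limit for testing, near 33.5, and the wild-type and transplanted means (29.6 and 31.7) below it. The difference and its SE are therefore not read as support. The Syt4 sign turned with muscle transcripts (-0.22) or Xist (-0.49) as a covariate and without SMA 1 and SMA 2 (-0.32). All of these lean on SMA 3, and no direction is read for Syt4. Syt17 and Syt9 also spread widely, from 29.1 to 123.5 and from 12.7 to 61.5 over the arrays (differences 0.21, SE 0.40, and -0.18, SE 0.32). Of the synaptotagmin-like genes, which encode partners of Rab27, Sytl2 alone was tested (difference -0.25, SE 0.28, for SMA minus wild type). Under the same alternatives Sytl2 gave 0.21, 0.49 and 0.25.

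Of the 7 Vamp genes, 4 were higher and 3 lower in SMA than in wild type (median 0.05). Vamp4, which works in traffic between the trans-Golgi and endosomes, read 294.5, 268.5 and 319.7 in the wild-type animals, 205.9, 192.4 and 229.6 in the SMA animals, and 188.4, 225 and 261.9 in the transplanted animals. All wild-type arrays lay above all others. The difference was -0.46 (SE 0.17; limma adjusted p = 0.732) for SMA minus wild type and -0.37 (SE 0.17; adjusted p = 0.754) for transplanted SMA minus wild type; its other tested probe set gave 0.01 and -0.17, so the order rests on 1 probe set. With the mean of all Vamp4 probe sets the first value was -0.13.

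Vamp8, a synaptobrevin of endosomes and lysosomes that is prominent outside neurons, read 131.7, 141.7 and 193 in the wild-type animals, 180.4, 255.5 and 238.9 in the SMA animals, and 216.3, 187.1 and 207 in the transplanted animals. Only wild type 3 and SMA 1 overlapped between those groups. The difference was 0.49 (SE 0.19; 95% interval 0.06 to 0.92; limma adjusted p = 0.768). Microglial markers were also lower on wild type 1 than on other wild-type arrays (list median -0.76 against 0.02 and 0.70 relative to the wild-type mean) and read 0.33, 0.47 and 0.29 in SMA. On the transplanted arrays the list read -0.97, -0.88 and 0.18, and Vamp8 216.3, 187.1 and 207. The part of microglial content in the Vamp8 difference was not tested. Vamp2, the forebrain synaptobrevin, ranged from 145.9 to 378 in wild type and from 152.8 to 456.3 in SMA, which gave 0.20 (SE 0.38), and Vamp3, its counterpart in most other cells, gave -0.23 (SE 0.26). The Vamp3 value turned to 0.29 with muscle transcripts, 0.51 with Xist and 0.40 without SMA 1 and SMA 2. Vamp5 and the lysosomal Vamp7 gave 0.30 (SE 0.33) and 0.05 (SE 0.18). The wild-type mean of Vamp5 (29.4) lay below the limit for testing, near 33.5, and its SMA and transplanted means (41.5 and 37.2) above it.

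**Figure D3:**
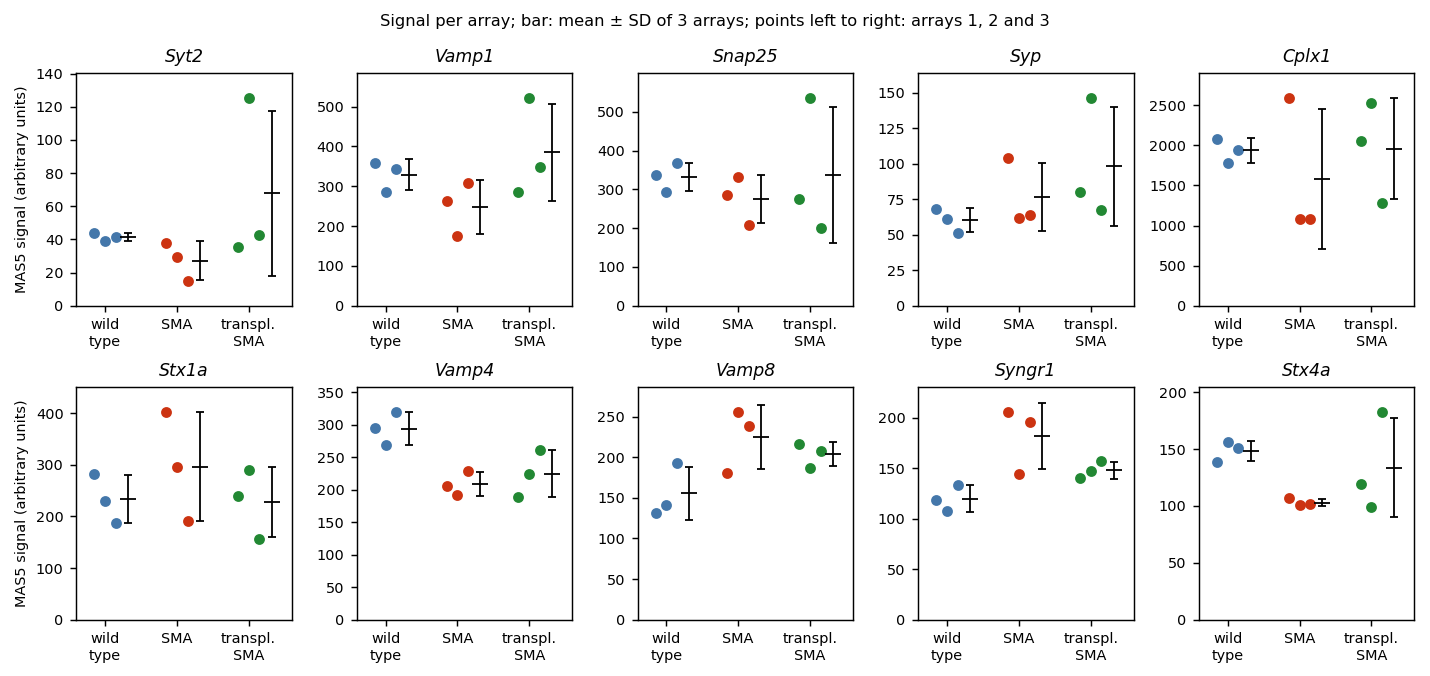
MAS5 signal on a linear axis from 0 for 10 genes, with 1 point per animal and a bar for the mean and SD of the 3 arrays of a group. Syt2, Vamp1, Snap25 and Syp share their highest point, transplanted SMA 2; Stx4a in SMA (100.4 to 106.6) and Vamp4 in SMA (192.4 to 229.6) lie below all their wild-type points.

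Snap25, the plasma membrane partner of syntaxin, read 336.6, 293.5 and 367.1 in the wild-type animals, 285.1, 333.2 and 209.4 in the SMA animals, and 275.8, 535.6 and 201.8 in the transplanted animals. Its transplanted arrays held both the highest and the lowest value of all. The difference was -0.27 (SE 0.31; 95% interval -0.95 to 0.40) for SMA minus wild type and 0.19 (SE 0.31; -0.48 to 0.86) for transplanted SMA minus SMA. Its widely expressed relative Snap29 gave 0.32 (SE 0.19) and -0.01 (SE 0.19).

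Of the plasma membrane syntaxins, Stx1a, the syntaxin of synapses, read 282.3, 229.9 and 188.2 in the wild-type animals, 402.1, 296.2 and 190.5 in the SMA animals, and 240, 290 and 155.8 in the transplanted animals. The groups overlapped throughout (0.28, SE 0.29, for SMA minus wild type), and the sign turned with muscle transcripts (-0.16) or Xist (-0.42) as a covariate and without SMA 1 and SMA 2 (-0.26). Stx4a, the syntaxin of plasma membrane traffic in most cell types, read 138.9, 156.3 and 150.7 in the wild-type animals, 106.6, 100.4 and 101.8 in the SMA animals, and 119.4, 99.4 and 182.5 in the transplanted animals. The SMA values all lay below the wild-type values, with little spread within either group (SD 3.25 in SMA and 8.88 in wild type), and the transplanted arrays spread over both ranges. The difference was -0.47 (SE 0.20; 95% interval -0.91 to -0.02; limma adjusted p = 0.818) for SMA minus wild type and 0.29 (SE 0.20; adjusted p = 0.933) for transplanted SMA minus SMA. Stx2, a wider plasma membrane syntaxin, gave -0.39 (SE 0.27) and 0.41 (SE 0.27). Stxbp3, the Munc18 protein that binds this syntaxin, gave -0.54 (SE 0.37) and 0.13 (SE 0.37), with its lowest signals on SMA 1 (114.1) and transplanted SMA 1 (120.9) against 230.8 to 357.5 elsewhere. Stxbp2, the Munc18 protein of blood and epithelial cells, read 26.8 to 69.6 in wild type and 64.6 to 88.7 after transplantation, a difference of 0.60 (SE 0.30; limma adjusted p = 0.762). Without wild type 1 this was 0.38, and the other Stxbp2 probe sets gave 0.08 and 0.12.

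Of the 7 syntaxins of internal membranes, 6 were higher and 1 lower in SMA at their brightest probe sets (median 0.10). Stx12 and Stx7 of endosomes, Stx8 of late endosomes, Stx6 and Stx5a of the Golgi, Stx17 of autophagosomes and Stx18 of the endoplasmic reticulum had differences of -0.04 to 0.23 for SMA minus wild type, with SE of 0.16 to 0.21. Stx12 read 627.8, 538.2 and 569 in the wild-type animals, 753.1, 570.7 and 565.4 in the SMA animals, and 614.6, 582.1 and 663.6 in the transplanted animals. Except for SMA 1 these values lay within a narrow band. Stx7 had no overlap between transplanted SMA (465.8 to 588.8) and wild type (418.7 to 456.1), with a difference of 0.21 (SE 0.17; limma adjusted p = 0.889).

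Dimmer probe sets of these syntaxins did not always follow. The second tested probe set of Stx17 read 60.6, 69.3 and 72 in the wild-type animals, 78.7, 83.8 and 109.6 in the SMA animals, and 120.1, 106.7 and 107.8 in the transplanted animals. Both SMA groups lay wholly above wild type, by 0.35 (SE 0.17) without and 0.62 (SE 0.17; limma adjusted p = 0.523) with the graft, whereas the brightest probe set gave 0.04 and -0.03. One of the further Stx18 probe sets lay wholly below wild type in SMA (-0.26, SE 0.19), against 0.10 at the brightest. Of all tested probe sets, 5.31% lay wholly above wild type in SMA and 6.06% wholly below, and 7.11% lay wholly above in transplanted SMA. Both probe sets were picked after their values were seen. Over all members, 15 genes had at least 2 tested probe sets, and these shared one sign in 10 genes for SMA minus wild type, in 5 for transplanted SMA minus SMA and in 9 for the remaining comparison.

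Complexins spread widely among the SMA and transplanted animals. Cplx1, which both restrains and promotes fusion, read 2083.3, 1777.8 and 1947 in the wild-type animals, 2588.9, 1083.5 and 1077.6 in the SMA animals, and 2053.2, 2533.5 and 1286.2 in the transplanted animals. SMA 1 held the highest value of all arrays while SMA 2 and SMA 3 held the lowest. The difference was -0.41 (SE 0.33; 95% interval -1.14 to 0.32) for SMA minus wild type, and -0.83 without SMA 1. Both further Cplx1 probe sets were also tested and gave -0.25 and 0.17. Cplx2 had the widest interval of all tested members, -0.64 to 1.45 for SMA minus wild type, with signals from 29.7 on transplanted SMA 3 to 209.4 on SMA 1.

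Among vesicle membrane proteins, Syngr1, a synaptogyrin of neurons, read 118.5, 107.4 and 133.5 in the wild-type animals, 205.5, 144.5 and 195.3 in the SMA animals, and 140.1, 147.1 and 156.9 in the transplanted animals. Every SMA and transplanted array lay above every wild-type array. The difference was 0.53 (SE 0.18; 95% interval 0.14 to 0.92; limma adjusted p = 0.674) for SMA minus wild type and -0.26 (SE 0.18; adjusted p = 0.933) for transplanted SMA minus SMA. Its other tested probe set gave 0.04 and 0.30, so the order was not shared by both. Syngr3 gave -0.09 (SE 0.24) for SMA minus wild type, and Syngr2, the form of non-neuronal cells, gave -0.20 (SE 0.28).

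Syp (synaptophysin), the abundant vesicle protein used to stain synapses, read 68.4, 61.3 and 51.5 in the wild-type animals, 103.8, 61.5 and 64 in the SMA animals, and 80.3, 146.1 and 67.6 in the transplanted animals. SMA 1 and transplanted SMA 2 stood above the rest. The difference was 0.25 (SE 0.26) for SMA minus wild type and 0.52 (SE 0.26; limma adjusted p = 0.773) for transplanted SMA minus wild type, which was 0.24 without transplanted SMA 2. For transplanted SMA minus SMA it was 0.27 (SE 0.26), and -0.01 without that array. Sv2a, the vesicle glycoprotein that binds the drug levetiracetam, read 147.2 to 259.7 over all 9 arrays and had differences of -0.06, 0.11 and 0.06 in the 3 comparisons (SE 0.23).

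Synapsins tether vesicles to actin and to each other. Syn1 read 95.9, 129.1 and 142.7 in the wild-type animals, 161.5, 60.8 and 149.6 in the SMA animals, and 141.6, 168.7 and 119.6 in the transplanted animals. SMA 2 was the lowest array (-0.06, SE 0.30, for SMA minus wild type). Syn2 read 227.3 to 264.5 in wild type, 167.5 to 227.9 in SMA and 131.7 to 288.4 in transplanted SMA (-0.38, SE 0.25; limma adjusted p = 0.936), and its dimmer probe set gave -0.20. Snap91, the clathrin assembly protein that rebuilds vesicles after release, gave -0.03 (SE 0.28).

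Rab3a, the vesicle GTPase, read 205.2, 241 and 203 in the wild-type animals, 331.5, 121.4 and 143.7 in the SMA animals, and 151.7, 346.8 and 197.8 in the transplanted animals. As with Cplx1, the wild-type arrays were close together and both SMA groups were spread to either side (-0.24, SE 0.35). Rab3il1 and Rab3ip, exchange factors of Rab proteins, gave 0.27 (SE 0.25) and 0.12 (SE 0.17).

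Of the Rab genes outside the Rab3 family, Rab30, a GTPase of the Golgi, read 71.9, 41.9 and 36.1 in the wild-type animals, 26.8, 25.7 and 26.5 in the SMA animals, and 28.6, 29.7 and 30.8 in the transplanted animals. The groups did not overlap in any of the 3 comparisons. The difference was -0.60 (SE 0.20; 95% interval -1.05 to -0.15; limma adjusted p = 0.686) for SMA minus wild type and -0.49 (SE 0.20; adjusted p = 0.735) for transplanted SMA minus wild type. Without wild type 1 the first value was -0.38. Its mean signal of 35.3 was just above the dim limit, near a mean of 33.5. The SMA and transplanted means (26.3 and 29.7) lay below that limit, and the wild-type mean (50) above it. Rab30 was thus tested only through its wild-type arrays, and its p-values and lack of overlap are not read as support. Without Rab30 to Rab38, 4, 2 and 0 of 40 tested members had an unadjusted limma p under 0.05 in the 3 comparisons. Rab31, Rab33a, Rab33b and Rab34 had differences of -0.20 to 0.41 for SMA minus wild type.

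Many members shared the array on which they were highest. Of the 45 tested members, 11 had their highest value on SMA 1 and 10 on transplanted SMA 2 (24.4% and 22.2%, against 17.6% and 8.13% of all tested probe sets). Those on transplanted SMA 2 were Syt2, Vamp1, Snap25, Syp, Syn1, Syn2, Syngr3, Snap91, Rab3a and Rab3ip. On SMA 1 they included Cplx1, Cplx2, Stx1a, Vamp2, Syt4 and Syngr1. A further 10 were highest on transplanted SMA 3 (11% of all tested probe sets), among them Stx2, Stx4a, Stx5a, Stx7, Stxbp2, Stxbp3, Syngr2 and Sytl2.

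General neuronal markers were highest on the same pair of arrays. Relative to the wild-type mean of each gene, their median was 0.64 on transplanted SMA 2 and 0.35 on SMA 1, and -0.32 on SMA 3, -0.34 on transplanted SMA 3 and -0.19 on transplanted SMA 1. Interneuron markers read 0.78 on transplanted SMA 2 and 0.31 on SMA 1, and motor neuron markers, mostly dim, 0.65 and 0.18. The motor neuron genes did not move together. Prph (76.6) and Slc18a3 (41.7) were highest on transplanted SMA 2. The tested Isl2 was highest on transplanted SMA 1 (119.8 against 83.7), and Mnx1 was lowest on transplanted SMA 2 (4.1). Oligodendrocyte markers read -0.84 on SMA 1 and -0.47 on SMA 2 against 0.31 on SMA 3, and -0.40, -0.04 and 0.42 on the transplanted arrays. The part of neuronal content in the differences of Syt2, Vamp1, Snap25 and Syp was not tested.

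**Figure D4:**
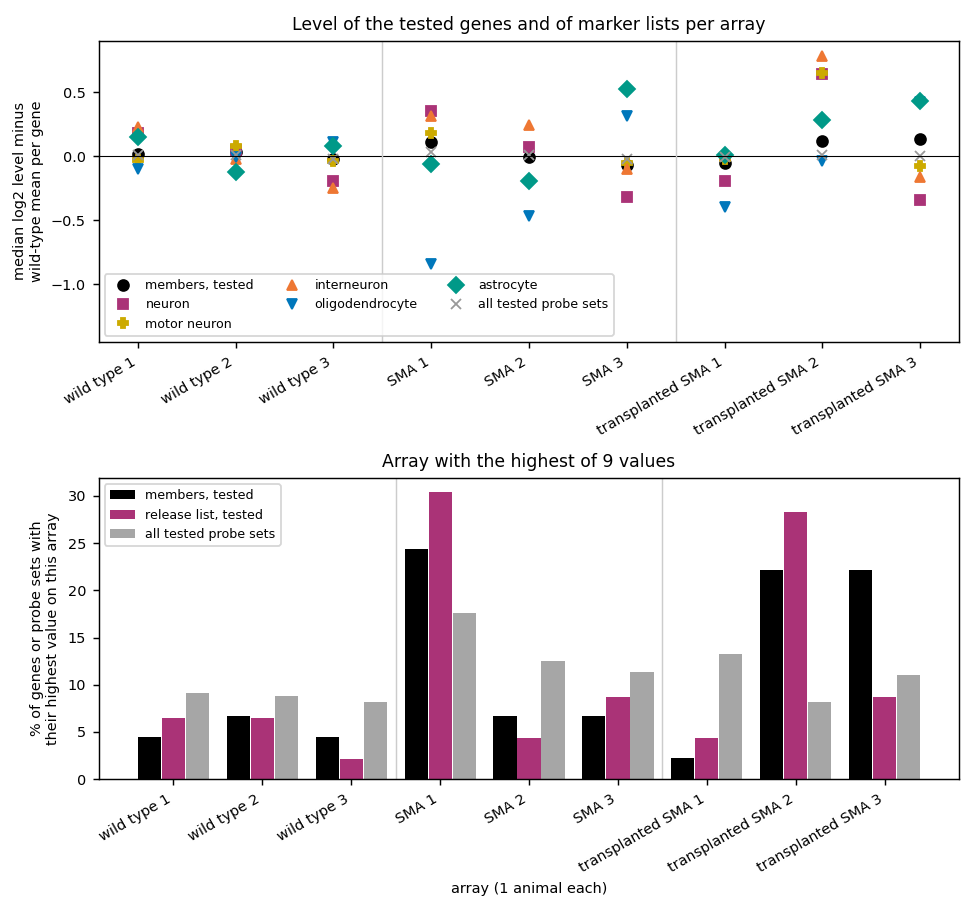
The upper panel shows, per array, the median over each list of the log2 level minus the gene's wild-type mean; the lower panel shows the share of genes or probe sets whose highest of 9 values fell on that array. The medians of the neuronal, motor neuron and interneuron lists peak on transplanted SMA 2 (0.64, 0.65 and 0.78), though not every gene in them does. Isl2, the 1 tested motor neuron marker, was highest on transplanted SMA 1. On transplanted SMA 2, 22.2% of tested members and 28.3% of the tested release machinery genes had their highest value, against 8.13% of all tested probe sets.

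Other genes of the release machinery were read from a list. This list, of 69 genes of the active zone, vesicle priming, clathrin recovery and transmitter loading, had 53 with a probe set and 46 tested, with median differences of -0.01, 0.04 and -0.01 in the 3 comparisons. With limma, 0 passed in any comparison. In the order of the comparisons above, 2, 3 and 1 of the 46 had an unadjusted p under 0.05. Of all tested probe sets, 6.04%, 4.77% and 6.55% did so. The counts are near or below those shares, so the genes named next are listed for their values only. Lin7c, a scaffold of the presynaptic and postsynaptic membrane, read 348 ± 58.5 (SD, n = 3) in wild type, 477 ± 42.4 in SMA and 337 ± 39 in transplanted SMA, with differences of 0.45 (SE 0.18; adjusted p = 0.777) and -0.49 (SE 0.18; adjusted p = 0.933). Ppfia4, a liprin of the active zone, gave -0.51 (SE 0.22; adjusted p = 0.807) for SMA minus wild type. For transplanted SMA minus SMA, the active zone gene Erc1 gave -0.45 (SE 0.19) and the Rab3 effector Rph3a 0.49 (SE 0.22), and the clathrin adaptor Ap2b1 gave 0.46 (SE 0.21) against wild type. The calcium channel gene Cacna1a, the active zone gene Bsn and the priming factor gene Unc13a were too dim to test.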

How the data were processed

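The authors deposited linear intensity values, named MAS5 in the submitters' processing notes and scaled alike on all arrays (the mean trimmed by 2% at each end was 100 on all 9 arrays). Per the labels' protocols, cRNA was made by 2 rounds of amplification, which favours the 3' end, and each array held cells of 1 animal. No MAS5 version or detection filter is given in the sources used here. Total signals were 3226815 to 3453157 per array. The number of arrays limits the precision. Each animal gave 1 array, so the spread behind the p-values mixes animals with capture and amplification. limma also moderates that spread across probe sets.

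Of 22690 probe sets, 64 controls were left out; 20380 named 1 gene in the platform annotation, 691 several and 1555 were not listed. All 71 member symbols matched RefSeq by gene ID. Signals had 16 added and were taken to log2, which makes folds of dim genes too small. The brighter 50% (11313 probe sets) were tested with limma 3.58.1 in R 4.3.3 (lmFit, eBayes with a trend, 1 mean per group, 6 residual degrees of freedom); tests were two-sided, with an adjusted p under 0.05 as the threshold. The script was tested on simulated data.

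Members, lists and alternatives were chosen with earlier results of these data known. Named genes were a fixed set of core release genes, those with an unadjusted p under 0.05, the members of highest and lowest signal in each role, and those with probe sets of opposite sign more than 1 log2 unit apart (Syt2 alone); other members are named after their values were seen. Alternatives were other normalisations, pseudocounts, filters, moderation, array weights, probe set choices, covariates and subsets of arrays.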

Additional observations from a re-analysis of the deposited data

How the results depend on the processing

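In none of the 27 alternative settings per comparison did a member pass the threshold with limma. The settings with a threshold of 0.10 and without Rab30 to Rab38 reuse the main fit, so they are not separate fits. The smallest adjusted p was 0.255 for SMA minus wild type and 0.13 for transplanted SMA minus wild type, both with Xist as a covariate, and 0.331 for transplanted SMA minus SMA without the arrays numbered 3; members with an unadjusted p under 0.05 numbered 1 to 8, 0 to 4 and 0 to 5. The median difference of the 71 genes moved by more than its spread between arrays in few cases. For SMA minus wild type (0.03) it ranged from -0.04 to 0.05 when 1 array was left out, the lowest without SMA 1. For transplanted SMA minus SMA (0.05) it was 0.01 to 0.12 when 1 array was left out. For transplanted SMA minus wild type (0.06) it was -0.02 with median centring, 0.13 with Xist as a covariate, and 0.06 to 0.10 when 1 array was left out. The cause was not tested. Of 3129 values of the 42 named members under alternatives, 3007 stayed within 1 SD of the replicates and 122 moved further. When a gene's probe sets were averaged, the transplanted SMA minus SMA difference of Syt2 was 0.12 and that of Vamp1 0.42, and the SMA minus wild type difference of Syngr1 was 0.17.

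With the sample number as a block, 0 members passed in each comparison, and 5, 2 and 2 had an unadjusted p under 0.05. Deviations of same-numbered arrays correlated at over 0.1 in 6 of 9 pairs. Pairing was to be assumed only where all 3 pairs of a comparison did so, and each comparison had a lower one (0.0291, 0.0243 and -0.0832). Of the 9 arrays, 6 correlated best with an array of their own number, which is a hint from the data and not from the design.

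The brightness of dim genes limits what can be read: 26 of the 71 genes were too dim to test, Syt1 and 8 other synaptotagmins among them. With 3 animals a group, sex and muscle content uneven between groups, and no detection calls, changes below about the 95% half-width of 0.56 (log2) were not resolved for a typical member.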
